A study of Mus musculus with 4 samples.

Results

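The cytosolic ribosomal protein genes were taken as every gene of the table whose symbol is Rpl or Rps followed by digits, with Rplp0, Rplp1, Rplp2 and Rpsa added. Symbols marked as pseudogenes and the Rps6k kinases were left out. This rule took 90 of 16673 genes. Of these, 46 encode proteins of the large subunit, 31 encode proteins of the small subunit, and 12 are paralogs or retrotransposed copies of those genes. The last, Rps19bp1, encodes a protein that binds RPS19 and is not itself a ribosomal protein. All 90 passed the filter on low values, a mean of at least 10 normalized counts over the 4 libraries.

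A ribosome carries a single copy of most of its proteins, and cells make these proteins from genes scattered over the chromosomes at closely matched amounts. In mammals the mRNAs of nearly all of them begin with a C followed by an unbroken run of pyrimidines, the terminal oligopyrimidine tract, through which growth signalling by mTOR and the RNA-binding protein LARP1 sets how strongly they are translated. Blood-forming cells are known to be sensitive to their supply. Loss of single copies of RPS19 and other ribosomal protein genes causes Diamond-Blackfan anaemia, a failure of red cell production.

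RNA was sequenced from Lin– bone marrow cells, which are what remains once cells with markers of mature blood lineages have been removed, from mice 2 months old. Group control is Tet3F/F, 2 mice whose labels name floxed Tet3 and no Cre, and group cKO is Tie2+/cre; Tet3F/F, 2 mice in which the same floxed alleles meet Cre from the Tie2 (Tek) promoter, active in endothelial cells and early blood cells. TET3 oxidises 5-methylcytosine in DNA, and the comparison asks how Lin– cells differ in transcripts when Tet3 is targeted in them. Each mouse gave 1 library, so every p-value below rests on 2 mice per group. The tests of single genes also draw on the spread of other genes (in limma, 5.48 prior against 2 residual degrees of freedom). Values are normalized counts, that is, reads on a gene after division by the library's size factor. Differences subtract control from cKO and are in log2 units, computed on log2(normalized count + 1).

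The libraries held 28845037 to 46673855 reads on genes. Tet3 was not lower in the libraries labelled cKO (log2 fold change -0.02, SE 0.22). The sources used here do not say which exons are floxed or how exons were counted, so this value checks no label. All directions below are therefore those of the libraries labelled cKO against those labelled control. Xist was at 5.54 and 9.57 in control and at 87442 and 48951 in cKO, and the Y-linked Ddx3y at 3158 and 3672 in control and at 0 in cKO, so that sex and genotype cannot be told apart. Control replicate 2 had 8.165% of its reads on the 13 mitochondrially encoded genes, against 0.9887% to 1.259% in the other 3 libraries. All 6 progenitor markers listed were detected, with summed levels of 136041 to 397484 in control and 309653 to 321895 in cKO. Most of each sum was Mpo, with 343617 and 82908 in control and 247093 and 263946 in cKO. The sums therefore mainly follow that gene. The 10 erythroid markers, none of them at 0 in any library, summed to 29472 and 81434 in control and to 37659 and 11663 in cKO.

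Start sites of the ribosomal protein genes were read first, because the pyrimidine tract is a feature that the choice of genes did not use. RefSeq promoters on GRCm38.p6 were matched by symbol to 57 of the 77 large and small subunit genes. A C at an annotated start followed by at least 4 bases that are each C or T, read on the gene's own strand only, was present in 13 of the 57 (22.8%). The same was true of 813 of all 27025 genes with a promoter entry (3.01%). With the start allowed to lie up to 10 bases away, 30 of the 57 (52.6%) and 26.8% of all genes held such a run. The 5 windows shown here run from 10 bases before the annotated start to 20 bases from it. They belong to genes whose values are described below, and capitals mark the run of C and T that opens the transcript.
Rplp2, chr7:141447641-141447670, + strand: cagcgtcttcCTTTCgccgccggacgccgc
Rps10, chr17:27635225-27635254, - strand: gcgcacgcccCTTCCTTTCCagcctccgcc
Rpl38, chr11:114668570-114668599, + strand: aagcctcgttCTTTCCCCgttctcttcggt
Rps27, chr3:90213629-90213658, - strand: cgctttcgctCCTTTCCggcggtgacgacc
Rps27rt, chr9:114982720-114982749, - strand: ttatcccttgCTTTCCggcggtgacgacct
The runs are 5 bases long in Rplp2, 10 in Rps10, 8 in Rpl38, 7 in Rps27 and 6 in Rps27rt. Downstream of its run, the Rps27rt window reads as the Rps27 window does. The median log2 fold change was -0.19 over the 13 genes with a run at the annotated start and -0.25 over the 44 without. With up to 10 bases allowed, it was -0.20 over the 30 genes with a run and -0.25 over the 27 without. Annotated starts may not be the bases where transcripts begin, so genes without a run here may still carry the tract.

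No ribosomal protein gene differed between the groups past the threshold. limma with Benjamini-Hochberg adjustment over 16598 genes called 0 of the 90, against 12 genes over the whole table (0.0723%, with 0.0422% lower and 0.0301% higher), and the smallest adjusted p among the 90 was 0.76. None of the 90 had an unadjusted p under 0.05 with limma, where 2.61% of all genes were lower and 3.49% higher at that level. edgeR called 0 of the 90 (0.0723% over all genes), and DESeq2 called 0 of the 89 to which it gave an adjusted p (0.702% over all genes). Most values were nevertheless slightly lower in the libraries labelled cKO. The log2 fold change was below 0 for 69 of the 90 and above it for 21, against 49.2% below over all genes, and the median was -0.21 against 0.01. Since the genes vary together from library to library, that count is not 90 separate observations. In bulk RNA such a value cannot tell fewer cells of a type apart from less RNA per cell.

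Separation between the groups was no more frequent than in the rest of the table. For 14 of the 90 genes (19.5% of all genes), the higher library labelled cKO was still below the lower one labelled control. The reverse held for 5 (19.2% of all genes). The medians also moved with single libraries. The median over the 90 genes was -0.05 when control replicate 2 was left out and -0.38 when control replicate 1 was. It was -0.09 without cKO replicate 1 and -0.34 without cKO replicate 2. Without control replicate 1, the only control library is control replicate 2, the one with the high mitochondrial share. Rplp2, Rpl38 and Rps3a3 then had log2 fold changes of -1.91, -1.13 and -1.54. Without control replicate 2 they were at -0.23, 0.15 and 0.05. None of the 12 alternatives that kept every library called any of these genes.

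The ribosomal protein genes together took 6.854% of the reads in control replicate 1 (Wilson 95% interval 6.846 to 6.8618) and 8.47% in control replicate 2 (8.4624 to 8.4783). They took 6.474% in cKO replicate 1 (6.465 to 6.4829) and 7.626% in cKO replicate 2 (7.6162 to 7.6352). These intervals cover counting error only. The groups interleaved, with a mean of 7.66% ± 1.14 (SD, n = 2) in control and 7.05% ± 0.814 (SD, n = 2) in cKO. A two-sided exact permutation test over the 4 libraries gave p = 0.667, where 2 against 2 cannot go below 0.333. The log2 ratio of the shares, -0.12, was 0.04 when control replicate 2 was left out and -0.27 when control replicate 1 was. With the mitochondrially encoded genes taken out of the total, the shares were 6.93% and 9.22% in control and 6.56% and 7.7% in cKO.

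**Figure D1:**
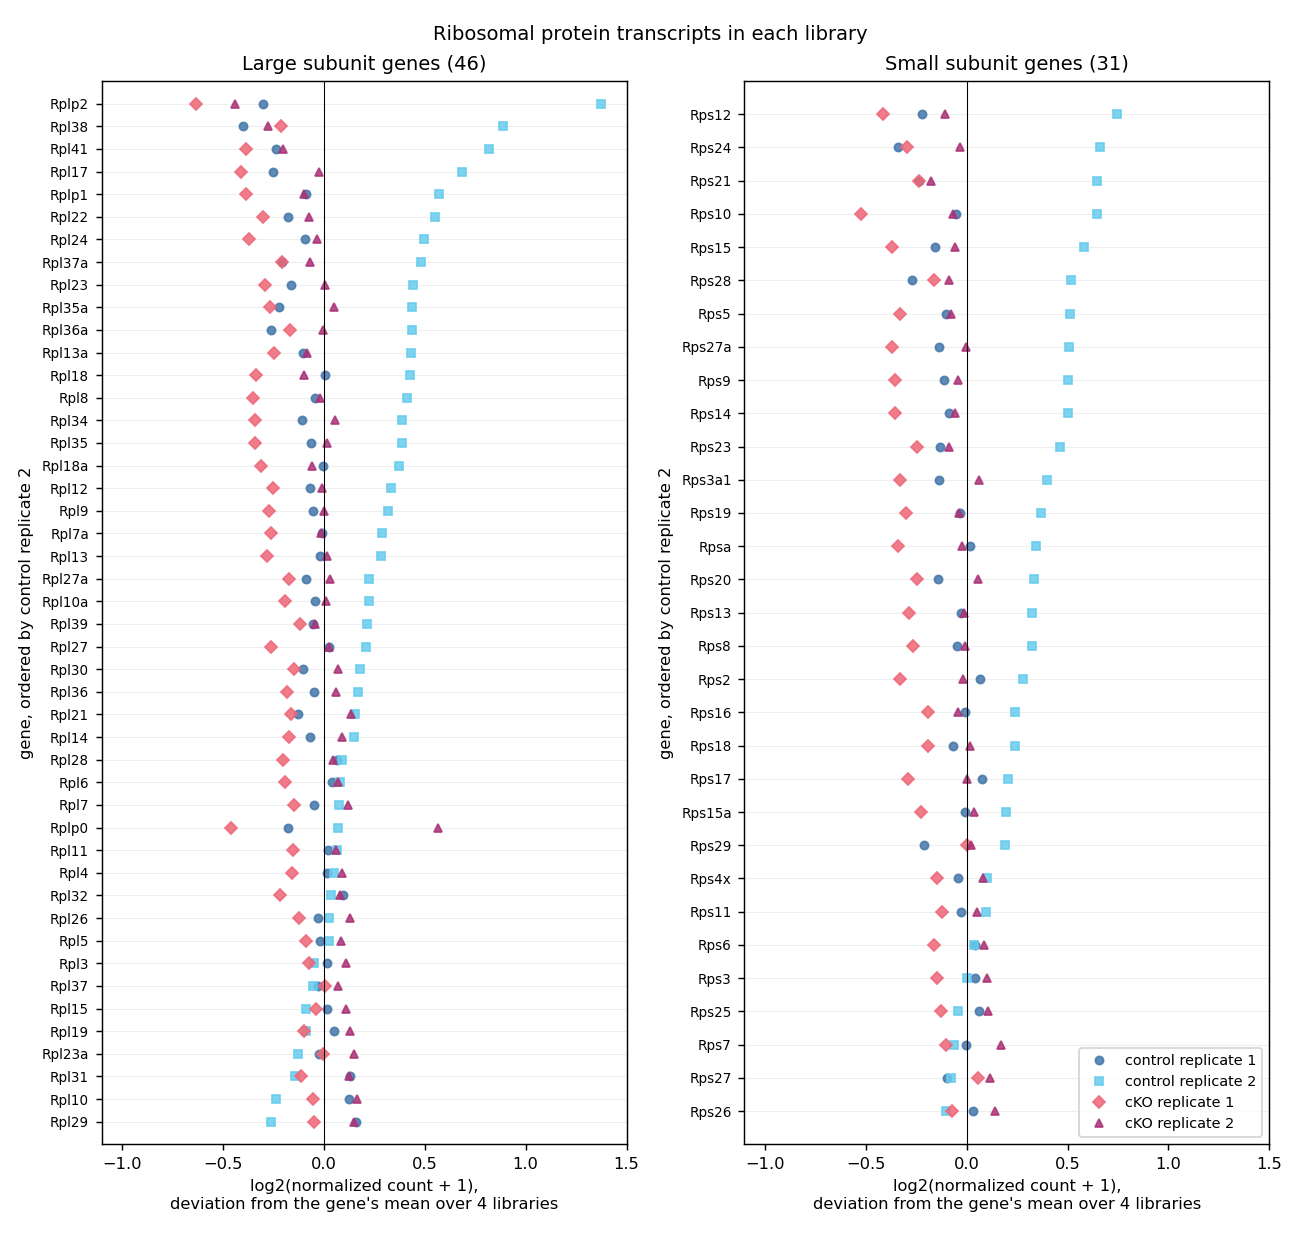
Each row is a large subunit gene (left, 46 genes) or a small subunit gene (right, 31 genes), ordered by control replicate 2, and each point is 1 library's log2(normalized count + 1) minus the gene's mean over the 4 libraries. Control replicate 2 ranges from the far right at Rplp2 to below the mean at Rpl29, and cKO replicate 1 is the lowest library in 64 of the 77 genes.

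The 77 large and small subunit genes followed the library more than the group. Control replicate 2 was the highest library for 57 of the 77, where 34.0% of all genes were highest there. cKO replicate 1 was the lowest library for 64 of the 77, where 27.5% of all genes were lowest there. The median deviation from each gene's mean was -0.05 in control replicate 1, 0.28 in control replicate 2, -0.22 in cKO replicate 1 and 0.02 in cKO replicate 2. Thus the highest and the lowest library belong to different groups, and the remaining pair lies between them. Within the cKO group, replicate 2 exceeded replicate 1 in 76 of the 77 genes, by a median of 0.25. Rpl38 was the exception.

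The libraries also differed in how evenly the genes shifted. Between control replicate 1 and cKO replicate 1 the SD of the log2 difference over the 77 genes was 0.13, between control replicate 1 and cKO replicate 2 it was 0.12, and between the libraries labelled cKO it was 0.13. Every pair with control replicate 2 had an SD of 0.38 to 0.39. Among the 2171 other genes that reached the level of the lowest subunit gene, SDs were 0.31 to 0.60. They were 0.49 to 0.60 in pairs with control replicate 2 and 0.31 to 0.46 in the others. Extreme genes widen these SDs. Xist was at -13.71 for control replicate 1 minus cKO replicate 1, and Gm8730 at 4.92 for control replicate 1 minus cKO replicate 2. Ribosomal protein genes of the 3 other libraries therefore kept their proportions across genotypes more closely than those of the control pair did. The 78 mitochondrial ribosomal protein genes split by library in the same way. Their SDs were 0.36 to 0.38 in pairs with control replicate 2 and 0.15 to 0.18 in the others. Control replicate 2 is also the library with the high mitochondrial share, and the part of that share in the ribosomal protein values was not tested.

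**Figure D2:**
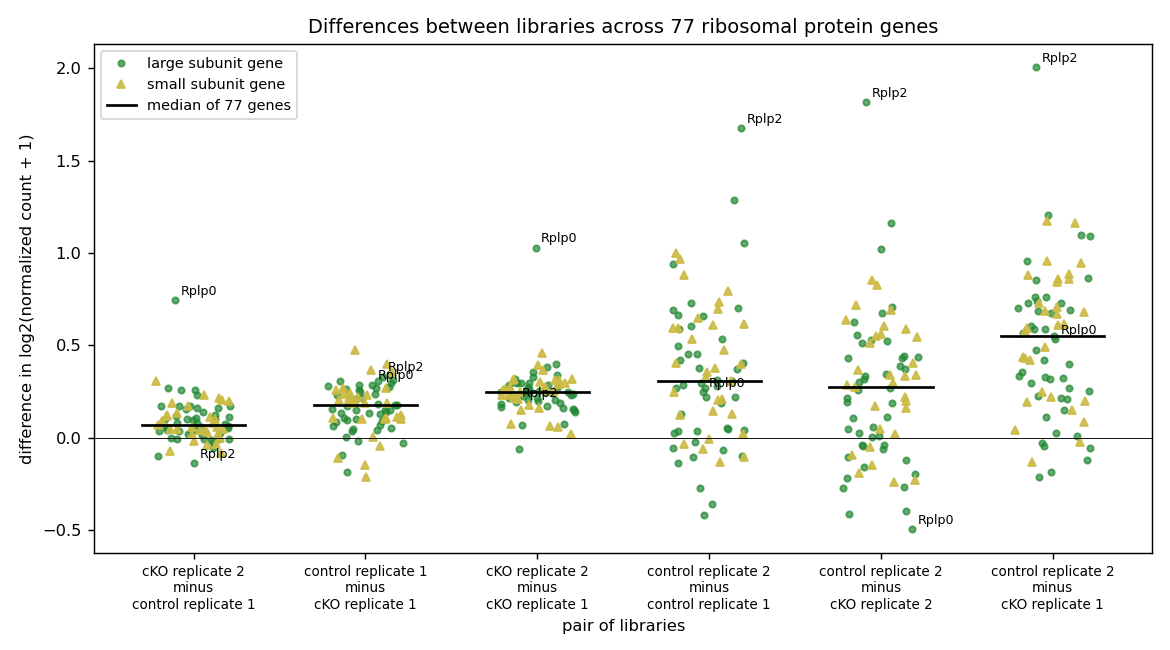
Each point is 1 of the 77 large (circles) or small (triangles) subunit genes, plotted as the difference in log2(normalized count + 1) between the 2 libraries named on the horizontal axis, with a line at the median. The 3 pairs on the left, which leave out control replicate 2, are narrow apart from Rplp0, and the 3 on the right, which hold it, are wide and reach furthest at Rplp2.

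The excess in control replicate 2 was uneven among the genes. Its ratio to the mean of the other 3 libraries had a median of 1.28 over the 77 genes, exceeded 1.5 for 20 of them (9 large and 11 small subunit genes) and was below 1 for 12. Rplp2 was highest at 3.55. Rpl38, which is known for its part in translating Hox mRNAs, followed at 2.27, with 4547 and 11076 in control replicates 1 and 2 and 5173 and 4948 in cKO replicates 1 and 2. Rpl41, the shortest ribosomal protein, was at 2.13, with 21976, 45643, 19800 and 22525 in the same order. In Rpl38 and Rpl41 only control replicate 2 is high, and the groups overlap. At the other end Rpl29 was at 0.784, with 20037, 14957, 17332 and 19900, so that this gene was lowest where most others were highest. Across the 77 genes the excess had a Spearman correlation of -0.25 with transcript length, against -0.38 over the 2222 genes that reached the level of the lowest subunit gene and -0.18 over all 16142 tested genes with a length. These are descriptions over genes that share the same 4 libraries.

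Large and small subunit genes differed little from each other. Of the 46 large subunit genes, 36 were below 0, with a median log2 fold change of -0.17, and of the 31 small subunit genes 27 were below 0, with a median of -0.28. Without control replicate 2 these medians were -0.04 and -0.06. Large subunit genes took 56.9% and 55.5% of the reads on both subunits in control and 57.2% and 57.5% in cKO. Here the lowest value is control replicate 2, and the groups do not overlap. The means were 56.2% ± 0.98 and 57.4% ± 0.243 (SD, n = 2 each), and a two-sided exact permutation test gave p = 0.333, the smallest that 2 against 2 allows.

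Within the large subunit, the stalk proteins stood out in different libraries. Rplp0, Rplp1 and Rplp2 encode the acidic P proteins that form the stalk by which the ribosome recruits the elongation factors. Rplp2 had 21238 and 67884 normalized counts in control replicates 1 and 2 and 16901 and 19286 in cKO replicates 1 and 2. The groups do not overlap, but the high value belongs to control replicate 2 alone. Its log2 fold change of -1.07 (SE 0.48, 95% interval -2.20 to 0.05) was the lowest of all 90, with an adjusted p of 0.76 (limma, Benjamini-Hochberg). Without control replicate 2 it was -0.23.

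Rplp1, whose protein pairs with that of Rplp2, had 40114 and 63497 in control and 32686 and 39836 in cKO. Its libraries also do not overlap, by a narrow margin between control replicate 1 and cKO replicate 2, and its log2 fold change was -0.48 (SE 0.29). The ratio of control replicate 2 to the other libraries was thus not shared equally by these stalk partners. Rplp0, the protein that anchors them to the ribosome, had 53590 and 63526 in control and 43957 and 89678 in cKO, a log2 fold change of 0.11 (SE 0.36). Here cKO replicate 2 is the high library, 1.67 times the mean of the others. No other gene of the 77 exceeded 1.5 in that library.

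Rplp0 has copies elsewhere in the genome to which reads were assigned, and their counts were low in cKO replicate 2, where Rplp0 was high. Gm8730, which RefSeq classes as a pseudogene, had 24592 and 27716 normalized counts in control and 20212 and 811 in cKO. Gm9625 had 2579, 2558, 2226 and 327 in the same order, and Gm6278 had 304, 216, 142 and 43.7. cKO replicate 2 is the lowest library in each. In Gm8730 and Gm9625 the other 3 libraries are close, while in Gm6278 they spread from 142 to 304. Of all 50-base words in Gm8730, 39.4% also occur in Rplp0. A coding stretch of Rplp0 and the matching stretch of Gm8730 show how alike the templates are, with capitals at the 3 bases of 60 that differ. It was chosen because no aligned coding stretch of this size held more differences. The stretch covers coding bases 388 to 447 of Rplp0 (GENCODE M21 transcripts).
Rplp0: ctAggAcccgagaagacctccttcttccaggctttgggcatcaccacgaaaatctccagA
Gm8730: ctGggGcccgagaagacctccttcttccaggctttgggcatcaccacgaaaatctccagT
Over the aligned bases the transcripts are 98.7% identical, so the split of reads between them is uncertain. The sum of Rplp0, Gm8730, Gm9625 and Gm6278 was 81064 and 94016 in control and 66538 and 90860 in cKO, a log2 fold change of -0.17. Copies held 33.9% and 32.4% of that sum in control and 33.9% and 1.3% in cKO. The Rplp0 value of cKO replicate 2, and the positive fold change, thus depend on whether copies are counted apart. Among 70 copies of ribosomal protein genes with a mean of at least 200, Gm8730 and Gm9625 were the only ones more than 4-fold away from the other libraries in any library.

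**Figure D3:**
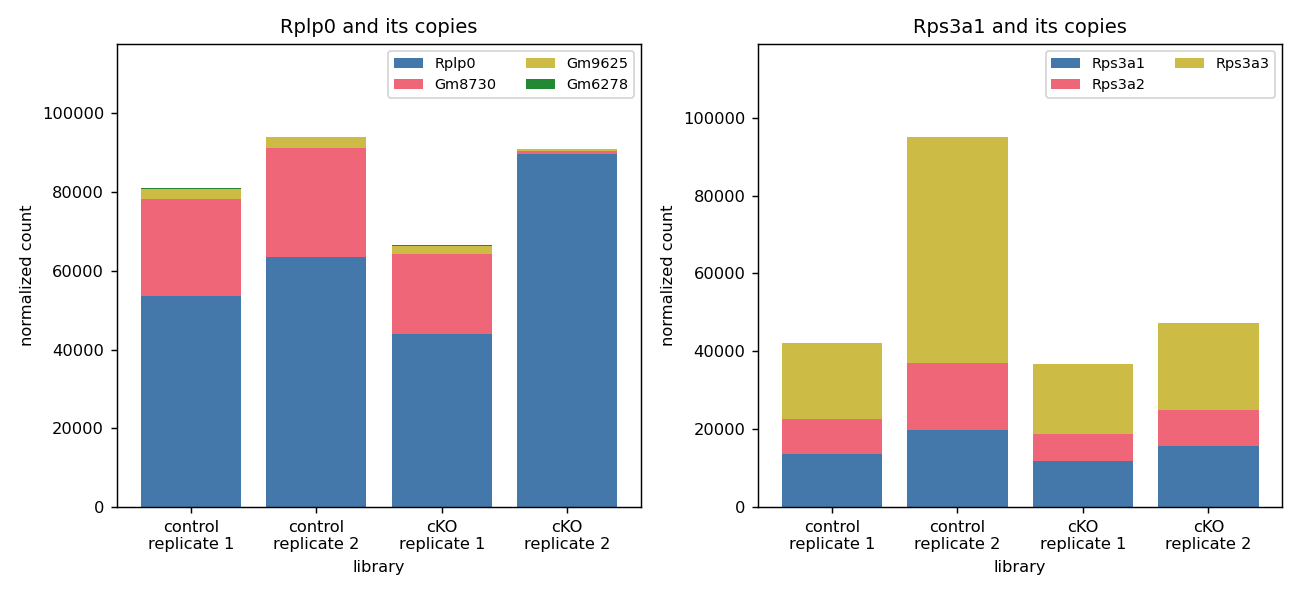
Stacked bars give normalized counts per library for Rplp0 with its 3 copies (left) and for Rps3a1 with Rps3a2 and Rps3a3 (right). Counts on copies of Rplp0 nearly vanish in cKO replicate 2 while the bar stays at 90860. In the Rps3a family most of the extra height of control replicate 2 is Rps3a3.

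Adding copies to their parent genes left the other patterns in place. Over the 77 families, 69 of which have at least 1 copy and which hold 220 copies in all, 66 sums were below 0 and the median log2 fold change was -0.24. The SD of the difference between the libraries labelled cKO was 0.09 for family sums, against 0.13 for the parent genes alone. Between the control libraries it was 0.38 for family sums and for parent genes. The largest difference between the libraries labelled cKO was still that of the Rplp0 family, at 0.45.

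For 6 of the 31 small subunit genes both libraries labelled cKO were the lower ones, a share near the 19.5% over all genes, and the 3 with the lowest log2 fold changes were Rps10, Rpsa and Rps2. Rps10, which lies near the site where mRNA enters, had 3758 and 6098 in control and 2708 and 3713 in cKO. Control replicate 1 and cKO replicate 2 nearly touch, and cKO replicate 1 is low. Its log2 fold change was -0.59 (SE 0.28, 95% interval -1.24 to 0.05). Rpsa, whose protein is also known as the laminin receptor precursor, had 105347 and 132130 in control and 82240 and 102389 in cKO, a log2 fold change of -0.36 (SE 0.29). Rps2, another protein of the mRNA entry region, had 77873, 89999, 59006 and 73458 in the same order (-0.35, SE 0.27). For Rpsa and Rps2 the groups do not overlap, and without control replicate 2 the values were -0.20 and -0.24. Quantile normalization turned the sign of Rpsa, to 0.13. Rps12 had 38401, 75020, 33570 and 41600 and overlapped, with only control replicate 2 high. In limma with Benjamini-Hochberg adjustment the adjusted p of these 4 genes was 0.76 to 0.78.

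Rps27 was the small subunit gene whose libraries separated in the other direction. Its protein has a zinc finger and takes part in small subunit rRNA processing. It had 10207 and 10358 in control and 11335 and 11824 in cKO, and both pairs were tight. The log2 fold change was 0.17 (SE 0.18, adjusted p 0.83 with limma and Benjamini-Hochberg), and it stayed between 0.14 and 0.20 with any library left out. Summed with its copy Rps27rt it was also 0.17. In the large subunit Rpl37 (13232, 13005, 13519 and 14172) and Rpl23a also separated upward, with log2 fold changes of 0.08 and 0.15.

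Among the 8 Diamond-Blackfan anaemia genes examined, 6 were below 0, with a median of -0.15, and 0.01 without control replicate 2. Rps19, the gene most often affected in patients, had 28646 and 37741 in control and 23765 and 28558 in cKO, a log2 fold change of -0.34 (SE 0.24). The groups are apart only by the small gap between control replicate 1 and cKO replicate 2. Rpl5 and Rpl11 encode the proteins that, bound to a small ribosomal RNA, hold back MDM2 when ribosome assembly fails. Rpl5 had 43012, 44347, 41051 and 46235 and Rpl11 had 30535, 31419, 27059 and 31391, with log2 fold changes of -0.00 (SE 0.23) and -0.09 (SE 0.22). Their 4 libraries interleave. The sign of Rpl11 was positive under library total scaling (0.02), quantile normalization (0.07) and without cKO replicate 1 (0.02). Rps24, Rpl35a, Rps7 and Rps26 had log2 fold changes of -0.32, -0.22, 0.06 and 0.07. Each had the other sign with a library left out, 0.18 and 0.11 for Rps24 and Rpl35a without control replicate 2 and -0.07 and -0.04 for Rps7 and Rps26 without cKO replicate 2.

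**Figure D4:**
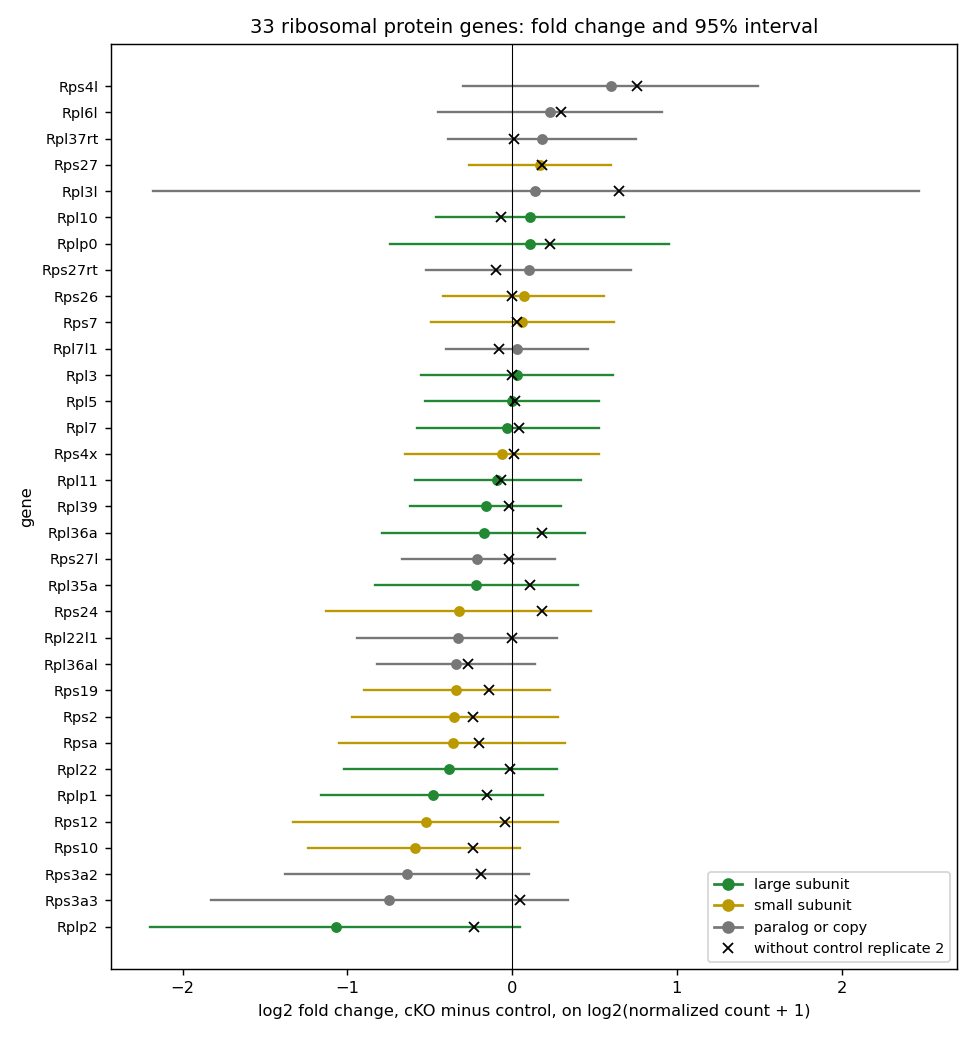
Points are log2 fold changes, cKO minus control, of 33 ribosomal protein genes with 95% intervals from limma, coloured by subunit, and crosses are the values without control replicate 2. Every interval includes 0, and the crosses of the genes at the foot of the plot lie closer to 0 than their points.

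Genes on the X chromosome are described apart because the libraries differ in sex. Rpl10, whose protein joins the large subunit late in its maturation, had 42944 and 33466 in control and 38014 and 44118 in cKO. Rps4x had 64284, 71027, 59797 and 70090 in the same order, Rpl36a had 11110, 18037, 11864 and 13286, and Rpl39 had 12738, 15366, 12206 and 12845. In each the groups overlap. Log2 fold changes ran from -0.17 for Rpl36a to 0.11 for Rpl10, and 3 of the 4 were below 0. Under library total scaling and quantile normalization the value of Rps4x was above 0, at 0.05 and 0.20.

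Paralogs were compared with their parent genes inside each library, so that the size factor cancels. In 12 pairs a two-sided exact permutation test gave no p below 0.333, the smallest possible, and after Benjamini-Hochberg adjustment over the 12 pairs the values were 0.999 to 1. Rpl22l1, known to replace Rpl22 where that gene is lost, kept the most even ratio. It made up 23.2% and 22.5% of the pair in control and 22.9% and 23.7% in cKO. Rpl22 itself had 17780, 29465, 16306 and 19096 and Rpl22l1 5359, 8540, 4840 and 5945, so both are high in control replicate 2. The difference in log2 ratio was 0.04.

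Rps27l, a target of p53, made up 25.7% and 30.6% of its pair with Rps27 in control and 23.2% and 23.1% in cKO. The groups do not overlap, and the difference in log2 ratio was -0.38 (exact permutation p = 0.333). Rps27l itself had 3535, 4572, 3418 and 3548, so control replicate 2 is its high library. The 3 genes of this family differ in how well reads can tell them apart, which the first 60 coding bases show, with capitals where a base differs from Rps27 (GENCODE M21 transcripts).
Rps27: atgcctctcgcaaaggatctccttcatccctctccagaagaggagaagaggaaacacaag
Rps27rt: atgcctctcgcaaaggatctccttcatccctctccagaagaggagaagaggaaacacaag
Rps27l: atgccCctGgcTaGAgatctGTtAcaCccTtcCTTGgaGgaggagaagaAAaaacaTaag
Rps27rt is identical to Rps27 here and over the whole coding sequence (100% identity), and 89.8% of its 50-base words occur in Rps27. Its values (740, 556, 608 and 779) are uncertain for that reason. Rps27l differs at 18 of the 60 bases and shares no 50-base word with Rps27 (0%), with 76.2% identity over the coding sequence.

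Rps4l, an autosomal paralog of Rps4x, was far less abundant than its parent. It had 174 and 217 in control and 219 and 393 in cKO, and the libraries labelled cKO lie above, by a small margin in replicate 1. The log2 fold change was 0.60 (SE 0.38), the highest of the 90, and the difference in log2 ratio to Rps4x was 0.66. It shares no 50-base word with Rps4x. The log2 ratio difference was 0.30 under quantile normalization. Rpl6l (259, 283, 336 and 300) also lay above control in both libraries, but 61.8% of its words occur in Rpl6, and Rpl6l made up 0.483% to 0.736% of the pair. The retrotransposed copies Rps3a2 and Rps3a3 share 76.7% and 49.6% of their words with Rps3a1. Rps3a3 had 19329 and 58204 in control and 17997 and 22215 in cKO, which is 2.93 times the other libraries in control replicate 2. Rps3a2 had 9136, 17156, 6904 and 9317 in the same order, and its log2 ratio to Rps3a1 was lower in both libraries labelled cKO, by a difference of -0.38 (exact permutation p = 0.333). The sum of the 3 genes was 42085, 95110, 36820 and 47172, with a log2 fold change of -0.60, and only control replicate 2 is high.

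The remaining paralogs showed no separation of ratios. Rpl3l, the paralog of Rpl3 in striated muscle, was close to absent, with 7.39, 16.0, 21.0 and 6.89 normalized counts. Rpl7l1, which acts in ribosome assembly, had 5705, 4928, 5249 and 5559, a log2 ratio difference of 0.06 to Rpl7. Rpl36al, the autosomal copy of Rpl36a, had 3725, 4120, 2700 and 3555 and lay lower in both libraries labelled cKO (log2 fold change -0.34, SE 0.21), while its ratio to Rpl36a overlapped, with a difference of -0.17. Across the 12 paralogs and copies the median log2 fold change was 0.05, and 5 were below 0.

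**Figure D5:**
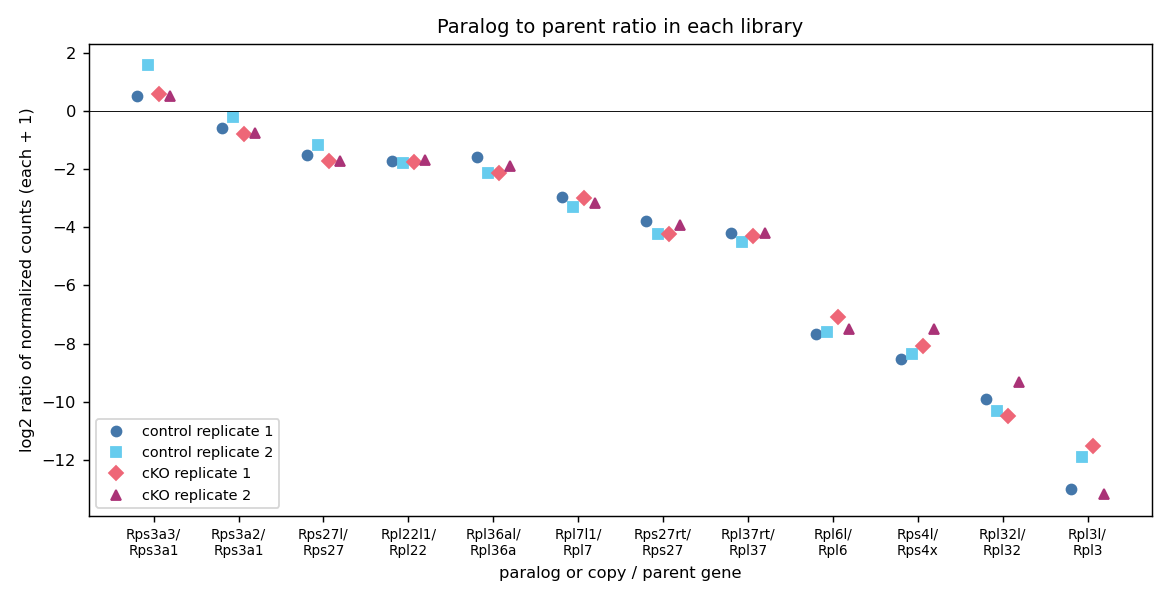
Points are log2 ratios of a paralog or copy to its parent gene in each of the 4 libraries, for 12 pairs ordered by ratio. The 4 points of Rpl22l1 nearly coincide, those of Rps4l rise to cKO replicate 2, and Rps3a3 is set apart by control replicate 2.

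Per kilobase of transcript, the subunit genes spanned a wide range. The highest means over the 4 libraries were those of Rps12 (95441 normalized counts per kilobase), Rplp1 (88243) and Rps2 (75234), and the lowest was Rpl24 (5613). Without control replicate 2 the first 3 were 76634, 75242 and 70253. The order among those 3 thus rests on gaps that this library widens. Lengths are those of an annotated transcript and may not be the form expressed.

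Genes that act with the ribosomal proteins mostly lay below 0 as well, and limma called none of them with Benjamini-Hochberg adjustment. Among 36 ribosome biogenesis factors, which process rRNA and assemble the subunits, 30 were below 0 with a median of -0.18. Unlike that of the ribosomal protein genes, this median did not shrink without control replicate 2 (-0.22). It did move with other libraries, to -0.08 without control replicate 1, -0.09 without cKO replicate 1 and -0.29 without cKO replicate 2. Under library total scaling it was -0.07. The groups did not overlap for 16 of the 36 with cKO lower and for 0 with cKO higher, against 19.5% and 19.2% of all genes. Nop56, a core protein of the box C/D particles, had 13245, 16244, 10986 and 12107 (log2 fold change -0.35, SE 0.20). Of 13 genes for RNA polymerase I and its factors, which transcribe rRNA, 9 were below 0 (median -0.14). Among 18 elongation factors and other mRNAs with pyrimidine tracts, 13 were below 0 with a median of -0.06. Eef1b2, a nucleotide exchange subunit of elongation factor 1, had 24358, 45894, 22778 and 28010, so that control replicate 2 is high there as well.

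Regulators of these mRNAs and of growth signalling were evenly divided, with 9 of 18 below 0 and a median of -0.01. Larp1 had 16158, 14748, 14474 and 13062 (log2 fold change -0.17, SE 0.19), and Myc, an activator of ribosome production, had 10158, 9742, 9211 and 9877 (-0.06, SE 0.18). Of 14 p53 targets linked to ribosomal stress, 7 were below 0 (median 0.04), with Cdkn1a at -0.25 (SE 0.25) and Mdm2 at 0.10 (SE 0.18). Host genes of small nucleolar RNAs, several of which carry pyrimidine tracts themselves, were all below 0 (12 of 12, median -0.53), and their median was -0.10 without control replicate 2. Gas5 had 12163, 22283, 11408 and 12560, with only control replicate 2 high.

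Other lists had larger log2 fold changes in the same libraries. All 13 immediate early and dissociation stress genes were below 0 (median -1.70), and their summed level was 15933 and 21085 in control and 6193 and 8119 in cKO. limma called 0 of them (0.0723% over all genes), with 11 lower at an unadjusted p under 0.05 (2.61% of all genes). edgeR called 0 of them (0.0723%) and DESeq2 8 (0.702%). The 10 erythroid markers were all below 0 (median -2.13), but 0 of them separated the groups, and the median was -0.29 without cKO replicate 2, their lowest library, and -3.86 without cKO replicate 1. Of 7 T and NK cell markers, 6 were above 0 (median of all 7, 1.74). The groups did not overlap for 6 of the 7, with cKO higher (19.2% of all genes), and limma called 0 and DESeq2 4. All 4 stromal markers were below 0 (median -2.08). None of the 4 overlapped between the groups (19.5% of all genes separated with cKO lower), and limma called 0 and DESeq2 4. All 5 B and plasma cell markers detected and all 3 eosinophil markers were above 0 (medians 0.95 and 1.51). Without control replicate 2 these medians were 0.59 and -0.32. Of 8 neutrophil markers, 6 were below 0 (median -0.48, and 0.46 without control replicate 1). Of the 6 progenitor markers, 5 were above 0 (median 0.31). The part of any of these lists in the ribosomal protein values was not tested.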

How the data were processed

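RNA-seq libraries of Lin– bone marrow cells from 4 mice were used, 2 per group. The deposited signal of each gene is its reads after the authors' division by library size factors, per the file headers. The submitters' processing notes list STAR 2.7.9a, Trim Galore 0.6.7, featureCounts, SAMtools, DESeq2 and build mm39. Not given in the sources used here are settings, annotation and strand. Columns headed as wild type were matched to the control samples by number. All values (100%, within 0.1 read) were whole multiples of 1 read, and reads were recovered by division. The smallest sum over the libraries was 41 reads.

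limma 3.58.1 (R 4.3.3), with a trend, was fitted on log2(normalized count + 1) over 16598 genes (mean at least 10). Tests were two-sided, p-values were adjusted by Benjamini-Hochberg, and 0.05 was the threshold. edgeR 4.0.16 (quasi-likelihood) and DESeq2 1.42.0 were run on the recovered reads. The steps were tested on simulated data. Alternatives were pseudocounts of 0.5 and 10, no filter or a mean of at least 50, TMM, library total and quantile scaling, limma without a trend or robust, a replicate block, and each library left out.

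The members and lists were chosen with earlier results of these data known. Named genes were to be any past the threshold, the 4 highest and 4 lowest fold changes, Rplp0 to Rplp2, Rpsa, listed paralogs with parents, X-linked members, Diamond-Blackfan anaemia genes and the 3 highest per length, 33 genes in all. Rpl38, Rpl41, Rpl29, Rpl37, Rpl23a, Rpl24, Rps3a1, the Rplp0 copies, the genes named from other lists and the family sums were chosen after seeing the data, as were the pairs of Rpl6l, Rpl32l, Rpl37rt, Rps3a2 and Rps3a3. Lengths, chromosomes and coding sequences came from GENCODE M21 (GRCm38), matched by symbol for 97.2% of genes, and start windows from RefSeq promoters on GRCm38.p6. Both are another build than that of the reads. A copy is a transcript with at least 25% of its 50-base words in the parent. Overlapping or antisense genes may share reads.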

Additional observations from a re-analysis of the deposited data

How the results depend on the processing

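The count of ribosomal protein genes called was 0 under all 12 alternatives that kept every library, and 0 to 3 with a library left out. The median of the 90 genes ranged from -0.38 to -0.05 with a library left out, and was -0.11 under library total scaling, which moved the median of all genes from 0.01 to 0.12, and -0.07 under quantile normalization. Over all genes DESeq2 called 112 against 12, limma 8 with a mean of at least 50, without a trend or under quantile normalization, and limma 18 to 392 with a library left out, where the lone library of a group was assumed to vary like the others. The replicate numbers in the labels were not shown to pair the mice (correlation of same-numbered deviations -0.07 over 16598 genes), and with the replicate block limma called 8 genes in all and 0 of the 90, with a median of -0.21.

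The difference of the subunit medians, large minus small, was 0.11, 0.05 under quantile normalization and 0.01 to 0.16 with a library left out. Library total scaling moved the list medians to 0.05 (elongation factors; also 0.05 under quantile normalization), 0.10 (growth regulators), -0.03 (RNA polymerase I) and 0.14 (p53 targets; -0.03 with a mean of at least 50). With a library left out these ranged from -0.19 to 0.01, -0.10 to 0.12, -0.23 to -0.06 and -0.06 to 0.13. The snoRNA hosts ranged from -0.96 to -0.10 (0 to 5 called), the immediate early genes from -1.86 to -1.27 (1 to 8 called), the mitochondrially encoded genes from -3.06 to 0.02 (0 to 13 called), and 0 to 1 mitochondrial ribosomal proteins were called. The immediate early median was -1.33 with edgeR and -1.35 with DESeq2, and 1 of these genes was called with robust limma and 8 with DESeq2. Under quantile normalization the paralog ratio differences were -0.08 (Rpl22l1), 0.30 (Rps4l) and 0.07 (Rpl6l). With a library left out the ranges were 0.01 to 0.08, 0.35 to 0.96 and 0.14 to 0.56.

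Signs of single genes turned mostly with a library left out, over these ranges: Rpl10 -0.07 to 0.29, Rpl11 -0.19 to 0.02, Rpl3 -0.06 to 0.13, Rpl35a -0.55 to 0.11, Rpl36a -0.52 to 0.18, Rpl38 -1.13 to 0.15, Rpl3l -0.60 to 0.88, Rpl7 -0.16 to 0.11, Rpl7l1 -0.08 to 0.13, Rplp0 -0.41 to 0.62, Rps24 -0.82 to 0.18, Rps26 -0.04 to 0.18, Rps27rt -0.10 to 0.31, Rps3a3 -1.54 to 0.05, Rps4x -0.18 to 0.05 and Rps7 -0.07 to 0.20. Under quantile normalization Rpl11 was at 0.07, Rpl3l at -0.05, Rpl7 at 0.18, Rps4x at 0.20 and Rpsa at 0.13. Under library total scaling Rpl11 was at 0.02, Rpl7 at 0.08 and Rps4x at 0.05. The cause was not tested. Depth limits Rpl3l and Rpl32l, at 6.89 to 52.8 normalized counts, and not the subunit genes, whose lowest mean was 3800.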

Other observations

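The 117 symbols marked as ribosomal protein pseudogenes, which the choice of genes left out, were also mostly below 0. Of the 116 tested, 85 were below 0, with a median log2 fold change of -0.27. limma called 0 with Benjamini-Hochberg adjustment (0.0723% over all genes). At an unadjusted limma p under 0.05, against 2.61% and 3.49% of all genes, 4 of the 116 were lower and 0 higher. The groups did not overlap for 32 of them with cKO lower and for 4 with cKO higher, against 19.5% and 19.2% of all genes. Without control replicate 2 their median was -0.16. Rps16-ps2, all of whose 50-base words occur in Rps16, had 2327 and 2847 normalized counts in control and 1715 and 2214 in cKO. Reads of such a copy cannot be told apart from those of its parent gene, so these values are uncertain. Gm10076, a copy of Rpl41, had 4870, 7861, 3915 and 4858, and here too control replicate 2 is the high library.

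Mitochondrial ribosomal proteins, encoded in the nucleus and imported to translate the mitochondrial mRNAs, were lower in most cases. Of 78 genes 71 were below 0, with a median of -0.29, and -0.15 without control replicate 2. limma called 0, with 9 lower and 0 higher at an unadjusted p under 0.05 (2.61% and 3.49% of all genes). edgeR and DESeq2 called 0. The groups did not overlap for 46 of the 78 with cKO lower and for 1 with cKO higher, where 19.5% and 19.2% of all genes did so. Between control replicate 1 and cKO replicate 1, 77 of the 78 were higher in the control library, by a median of 0.29. Against cKO replicate 2 it was 57 of the 78, with a median of 0.07. cKO replicate 1 was the lowest library for 69 of these genes. The mRNAs they help to translate, the 13 mitochondrially encoded ones, summed to 393408 and 3039444 in control and to 424041 and 340995 in cKO. Fau and Rack1, which encode ribosomal proteins under symbols outside the rule, had log2 fold changes of -0.50 (SE 0.28) and -0.13 (SE 0.25).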
